A study of Mus musculus with 6 samples.

Results

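The 6 genes described here are the MYC family members Myc, Mycn and Mycl and the partners Max, Mga and Mxd1, each with the open chromatin around it. Members were chosen by name, and a peak was assigned to a member where it overlapped the RefSeq span of that gene (GRCm38.p6) widened by 100 kb on each side. The 6 genes are 6 of 21883 protein-coding genes, and their windows held 116 of the 77629 peaks of the library. No peak fell into more than 1 window.

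The assay was ATAC-seq, which reads out open chromatin by where the enzyme Tn5 can cut and tag the DNA. The cells were mouse embryonic stem cells of the E14 line, kept in 2i/LIF medium. This medium holds LIF, the MEK inhibitor PD0325901 and the GSK3 inhibitor CHIR99021. The cells carry the NSD1-dTAG knockin, which fuses the histone H3 lysine 36 methyltransferase NSD1 to a tag that the small molecule dTAG-13 directs to degradation. All 6 samples of the series share this genotype, and they form 6 groups of 1 sample: stem cells given 500 nM dTAG-13 for 0, 1, 6 or 24 h, and day 6 embryoid bodies made with or without the compound. The library analysed is the 0 h sample, which received no dTAG-13. The 5 remaining samples were not analysed here. The sources used here do not say whether the line is a single clone. There were no replicates, so no p-value was computed, and the 95% intervals are exact Poisson intervals that cover counting error only.

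MYC, MYCN and MYCL are transcription factors of the basic helix-loop-helix leucine zipper class. They bind DNA as heterodimers with MAX, with the E-box CACGTG as their best known site, and activate genes of growth, ribosome production and metabolism. MXD1 competes with MYC for MAX and recruits corepressors, and MGA is a large MAX partner that brings MAX into a variant Polycomb complex known as PRC1.6. In mouse embryonic stem cells, MYC and MYCN support self-renewal, Myc is a target of LIF and STAT3 signalling, and GSK3 marks MYC protein for degradation.

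Stem cell marker genes were accessible in this library. Of 8 stem cell markers 7 had a peak at an annotated gene end, with pileups from 58 to 152, and Esrrb, the other one, had a peak at its start and inside its body. Of 6 fibroblast markers 4 had one, or 66.7%, close to the 66.5% of all protein-coding genes, with pileups from 7 to 38. Of those markers, Col3a1 had no peak at its ends or in its body. The summit pileup counts the reads or fragments that cover the highest point of a peak. It had a median of 23 over the 77533 peaks on chromosomes 1 to 19, X and Y, and the lowest listed was 6. Sites with lower pileups were not detectable at this depth, and where the local background of reads was higher a listed peak needed a higher pileup.

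All 6 genes had open chromatin within 1 kb of an annotated end, though at Mycn the peak lay 523 bp from it. In 5 of the 6 the tallest such peak was above the median over genes with one. A peak within 1 kb of an annotated gene end was present at 6 of 6 members, against 66.5% of all protein-coding genes. The tallest such peak had a median pileup of 113.5 over the 6 members, against 66 (quartiles 37 and 101) over the 14548 protein-coding genes with one. In order of height these peaks belonged to Mxd1, Max, Mycl, Myc, Mycn and Mga. Their pileups were 190, 171, 117, 110, 107 and 60. By fold enrichment, which sets pileup against local background, only the Mxd1 peak (16.3) exceeded the median of 11.11 over genes with a gene-end peak. The other 5 had folds from 6.41 to 11.0.

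The intervals of those pileups split the order into 3 levels. Mxd1 (164 to 219) and Max (146 to 199) overlapped each other and lay above the others. Mycl (96.8 to 140), Myc (90.4 to 133) and Mycn (87.7 to 129) could not be separated. Mga (45.8 to 77.2) lay below all of them at its annotated end, but its RefSeq promoter lies inside the annotated span. The peak there reached 108 (88.6 to 130), level with the peaks of the 3 MYC genes.

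A peak more than 1 kb from every protein-coding gene end is called distal here. The tallest distal peak of a window was taken among those that were also more than 1 kb from the RefSeq promoter starts of protein-coding genes, which leaves out the promoter peak of Mga and, in the same window, the peak of 48 at the promoter start of Tyro3.

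**Figure D1:**
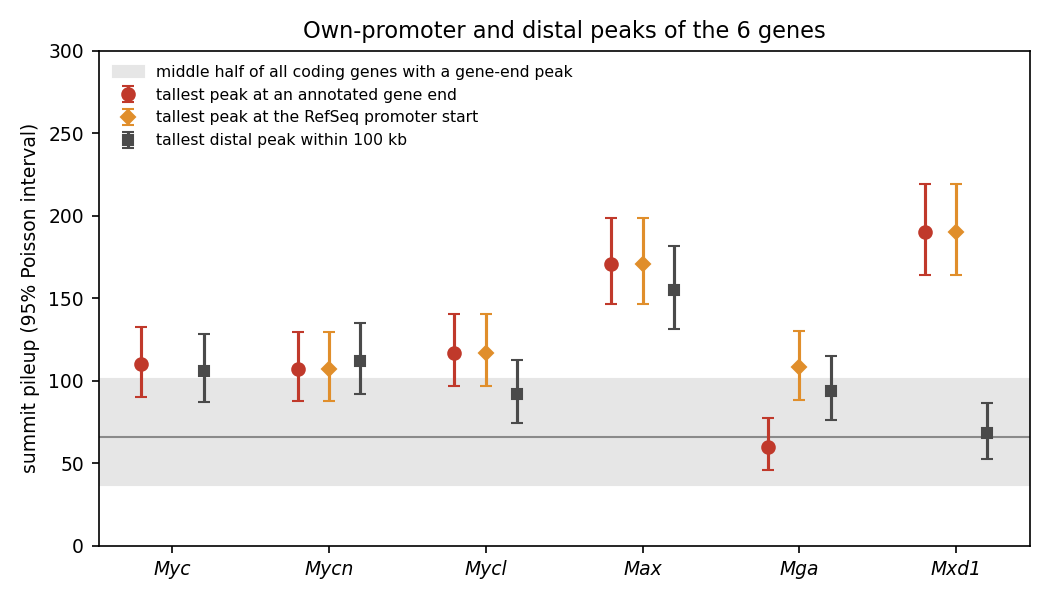
Summit pileup with its 95% Poisson interval (vertical axis) for the tallest peak at an annotated gene end (circles), at the RefSeq promoter start (diamonds, not drawn for Myc) and at a distal site within 100 kb and away from promoter starts (squares), for each of the 6 genes. The grey band runs from the lower to the upper quartile (37 to 101) of protein-coding genes that have a gene-end peak and the grey line is their median, 66; Mxd1 at 190 and Max at 171 stand above the other gene-end peaks, and at Mxd1 the intervals of the distal and the gene-end peak do not overlap.

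RefSeq promoter sequences, which run from 250 bases before to 50 bases after a start, were matched by gene identifier for 5 of the 6 members: Mycn, Mycl, Max, Mga and Mxd1. The promoters of Max, Mga, Mxd1 and Mycl lay wholly inside a peak, while the Mycn promoter had no base in one. The peaks on either side of the Mycn promoter had local backgrounds of 16.6 and 15.9, so reads over it could go unlisted. At least 1 base lay in a peak in 60.8% of 21262 promoters of protein-coding genes. The promoters of Max, with an E-box, of Mxd1, under the tallest peak, of Mga, inside the annotated gene span, and of Mycn, outside any peak, are shown 5′ to 3′ on the strand of the gene (GRCm38.p6). Capitals mark the E-box CACGTG in Max, the GC box GGGCGG in Mxd1, Mga and Mycn, and CCAAT in Mxd1, each on either strand.
Max, chr12:76962199-76962498, minus strand: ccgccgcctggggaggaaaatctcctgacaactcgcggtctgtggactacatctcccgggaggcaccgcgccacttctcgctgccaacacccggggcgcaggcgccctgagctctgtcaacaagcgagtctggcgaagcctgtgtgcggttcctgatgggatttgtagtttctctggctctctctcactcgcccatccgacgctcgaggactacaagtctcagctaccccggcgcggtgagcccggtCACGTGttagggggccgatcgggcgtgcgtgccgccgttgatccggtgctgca
Mxd1, chr6:86669110-86669409, minus strand: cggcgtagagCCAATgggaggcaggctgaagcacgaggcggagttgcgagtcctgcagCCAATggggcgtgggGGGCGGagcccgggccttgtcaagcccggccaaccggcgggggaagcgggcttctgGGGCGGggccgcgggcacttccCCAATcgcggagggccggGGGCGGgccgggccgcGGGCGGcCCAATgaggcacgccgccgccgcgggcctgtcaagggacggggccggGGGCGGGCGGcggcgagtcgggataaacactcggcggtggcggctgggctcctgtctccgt
Mga, chr2:119896978-119897277, plus strand: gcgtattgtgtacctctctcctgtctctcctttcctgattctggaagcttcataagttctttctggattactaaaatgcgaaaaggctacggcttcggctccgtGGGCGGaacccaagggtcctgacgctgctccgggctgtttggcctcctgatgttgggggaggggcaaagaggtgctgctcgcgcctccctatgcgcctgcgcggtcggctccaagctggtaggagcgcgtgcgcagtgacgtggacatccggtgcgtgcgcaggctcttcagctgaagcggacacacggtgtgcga
Mycn, chr12:12941787-12942086, minus strand: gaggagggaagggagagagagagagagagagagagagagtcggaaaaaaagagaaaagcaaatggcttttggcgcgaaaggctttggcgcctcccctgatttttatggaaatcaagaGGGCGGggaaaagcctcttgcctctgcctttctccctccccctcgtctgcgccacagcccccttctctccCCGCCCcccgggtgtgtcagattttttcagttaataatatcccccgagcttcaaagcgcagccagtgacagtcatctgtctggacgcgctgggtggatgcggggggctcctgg

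The Max promoter was the 1 of 5 that held CACGTG, the site bound by MAX dimers. Its first base lay 3 bp upstream of the annotated start, so the site spans that start. CACGTG occurred in 7.84% of the 21262 promoters and in 10.4% of the 12919 with a base in a peak. The GC box GGGCGG, searched on both strands, occurred in 4 of 5 members, in 46.2% of all promoters and in 68.6% of those with a base in a peak. Mxd1 held 6 matches, of which the 2 nearest the start, at 11 and 7 bp upstream, overlap each other. Mxd1 also held 4 matches of CCAAT, a motif present in 38.2% of promoters, in 38.3% of those with a base in a peak, and in no other member. Mycl held the 1 match of TATAAA, 8 bp upstream of its RefSeq promoter start, which lies inside the annotated span. That motif was present in 12.6% of promoters and in 5.79% of those with a base in a peak. Neither GCGGGAA, an E2F motif (5.95% of promoters, 8.91% of those with a base in a peak), nor CTTTGAT, a TCF motif (3.22% and 2.27%), occurred in the 5 members. Motif matches are letters in a window and were not tested as binding sites.

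The Mxd1 promoter was also the richest in G and C, at 76.7%, a value above that of 96.8% of promoters. It held 39 CpG dinucleotides, against a median of 13 over all promoters. Max followed with 64.7% G and C and 30 CpG, and Mycl and Mga held 22 and 24 CpG. The Mycn promoter, at 56.7% and 14 CpG, was close to the medians of 56.3% and 13.

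Myc, the founding member of the family, had 16 peaks in its window, more than 62.4% of protein-coding genes. The peak over its lower-coordinate end (chr15:61984882-61985812, 931 bp wide) had a pileup of 110 and the authors' fold enrichment of 7.11. A narrower peak inside the gene, at chr15:61986981-61987210, reached 51 (38.0 to 67.1), and peaks of 66 and 65 lay 1.80 and 6.02 kb outside that same end. A peak of 32 (21.9 to 45.2) lay 4.30 kb beyond the other end. The gene and these flanks thus held 5 peaks with pileups from 32 to 110.

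The tallest sites of Myc away from the gene lay on the side of Pvt1, a long noncoding RNA gene known as a neighbour of Myc and as a host of its enhancers. A pair of peaks stood between the 2 genes, at chr15:62010705-62011134 and chr15:62012541-62013084, with pileups of 99 (80.5 to 121) and 106 (86.8 to 128). They lay 20.3 and 22.2 kb from Myc, and the taller one had 0.964 times the height of the gene's own peak, within its counting interval. Pvt1 begins 47.6 kb from Myc. The peak at its lower-coordinate end had a pileup of 22 (13.8 to 33.3), and 5 further peaks inside Pvt1 in this window had pileups from 17 to 29. On the other side of Myc, beyond 6.02 kb, 1 peak was found, 57.2 kb away with a pileup of 37. Of the 16 peaks 14 lay outside protein-coding genes and their ends.

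Mycn, the paralogue most used in embryonic and neural progenitors, had 15 peaks, also in a window without any other protein-coding gene. Its gene-end peak (chr12:12942359-12943791) was the widest of the 116, at 1433 bp, and had a pileup of 107 and a fold of 6.41. That peak lay wholly upstream of the gene: its near edge was 523 bp and its summit 1590 bp from the annotated start. Among 13928 promoters with a peak within 1 kb of the start, the peak covered the start in 87.9%, and the summit lay more than 1 kb away in 4.47%. The other 4 members with a promoter sequence had the start inside the peak, with summits 42 bp (Mga), 133 bp (Max), 170 bp (Mxd1) and 339 bp (Mycl) from it, against a median distance of 103 bp. At Mycl the RefSeq promoter start lies inside the annotated span, and the summit lay 4 bp from the annotated end.

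A second peak of Mycn lay inside the gene, at chr12:12938769-12939218, with a pileup of 81 (64.3 to 101). The tallest peak of the window was neither of these but a distal one 8.16 kb beyond the 3′ end of the gene, at chr12:12926983-12927932. It had a pileup of 112 (92.2 to 135) and a fold of 13.4, and its height was 1.05 times that of the gene-end peak, with overlapping intervals. A peak of 80 (63.4 to 99.6) followed at 26.0 kb, at the end of the noncoding gene Gm40271. On this 3′ side 10 peaks were found, against 4 on the 5′ side, of which 1 was the gene-end peak.

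Mycl, the remaining paralogue, had 17 peaks. Its start peak (chr4:122995400-122996457) had a pileup of 117 and a fold of 10.9, and a second one within 1 kb of its 3′ end, at chr4:123000881-123001530, reached 54 (40.6 to 70.5). The tallest distal peak lay 39.5 kb upstream in the body of Mfsd2a, which encodes a lysolipid transporter, with a pileup of 92 (74.2 to 113) and a fold of 17.0, the highest fold of this window. The end of Mfsd2a carried a peak of 31, and that of Trit1, which encodes a tRNA modifying enzyme, one of 46. Of the other 12 peaks, all with pileups from 9 to 49, 10 lay outside protein-coding genes.

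**Figure D2:**
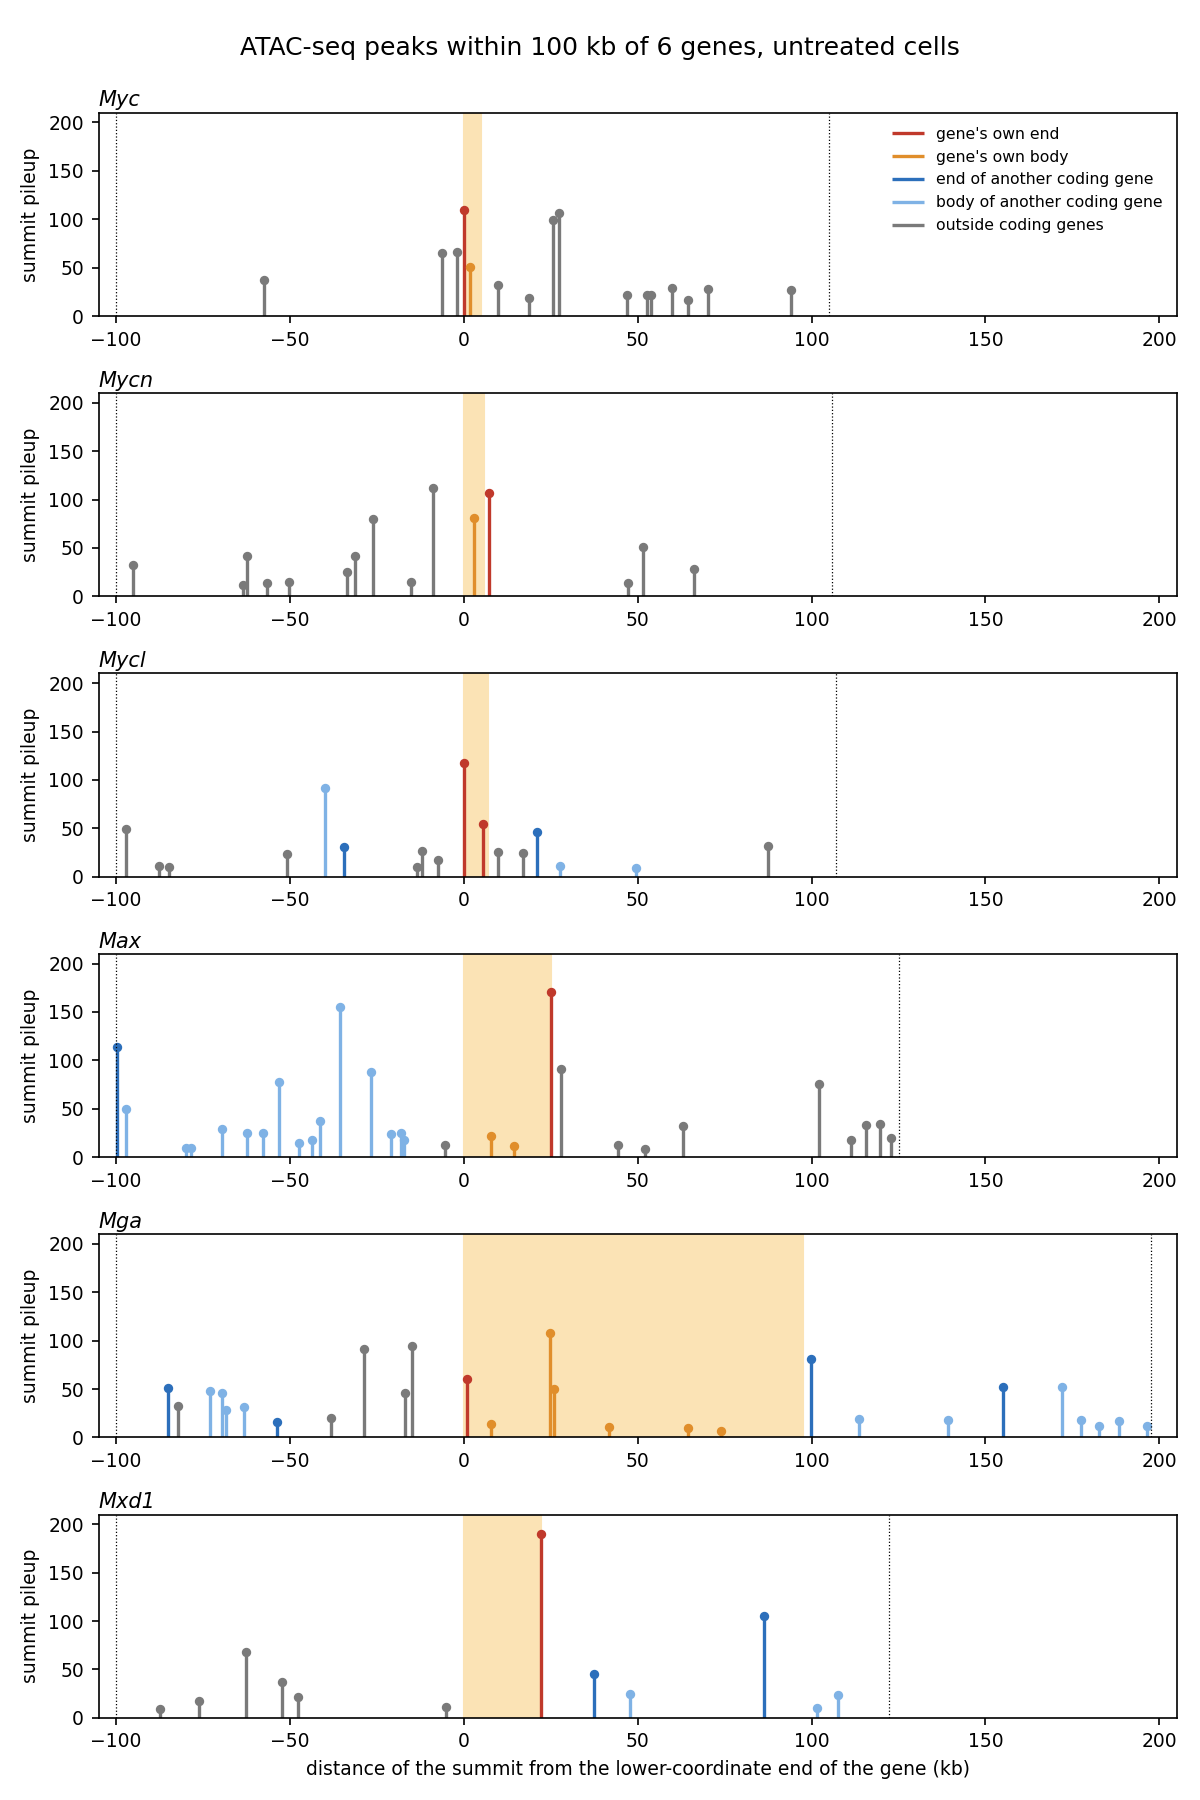
Summit pileup (vertical axes) of each of the 116 peaks against the distance of its summit from the lower-coordinate end of the gene in kb, 1 panel per gene; the shaded band is the gene, dotted lines are the limits of the window, and colours give where the peak lies. Myc and Mycn have tall peaks away from any protein-coding gene, Max has a row of peaks inside the neighbouring Fntb, and Mxd1 has 1 peak of 190 with lower ones around it.

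Max, the obligate partner of the MYC proteins, had the most peaks within 100 kb and the tallest distal site. Its window held 29 peaks, more than 94.6% of protein-coding genes, and 27 of them were distal. Its start peak (chr12:76961875-76962683) had a pileup of 171 and a fold of 11.0, above 96.7% of the genes with a gene-end peak by pileup and above 49.5% by fold. A peak of 91 (73.3 to 112) lay 2.79 kb upstream of the gene.

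Of the 29 peaks around Max, 15 lay in the body of Fntb, which encodes a farnesyltransferase subunit, and 1 more at the end of Fntb, with a pileup of 114 (94.0 to 137). The tallest of the 15, at chr12:76901347-76902175, was 35.1 kb from Max, beyond its 3′ end. It had a pileup of 155 (132 to 181) and a fold of 14.5, taller than 99.5% of the 60002 peaks of the library away from gene ends and promoter starts. Peaks of 88 and 78 followed in the same gene, at 26.6 and 52.8 kb. The 2 peaks inside Max reached 22 and 11. On the 5′ side a peak of 76 (59.9 to 95.1) lay 76.9 kb away, at the end of the noncoding gene Gm35189. Whether the sites inside Fntb act on Max or on Fntb was not tested.

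Mga, the largest of the 6 genes at 97.6 kb, had 27 peaks in the widest window, 297.6 kb. The peak at the RefSeq promoter (chr2:119896859-119897653) had a pileup of 108 and a fold of 12.2, with its summit 42 bp from the start. The one at the lower-coordinate end of the span (chr2:119872353-119873649), upstream of that start, had 60 and a fold of 10.8. Another of 50 (37.1 to 65.9) lay at chr2:119898232-119898532, and 4 more inside the gene had pileups from 7 to 14. Away from promoter starts, the tallest distal peaks lay upstream of the span, with pileups of 94 (76.0 to 115) at 14.5 kb and 91 (73.3 to 112) at 28.2 kb. The end of Mapkbp1, 2.08 kb beyond the 3′ end of Mga, carried a peak of 81 (64.3 to 101).

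Mxd1, the MYC antagonist of the set, had the tallest gene-end peak and the fewest peaks within 100 kb. The peak at its start (chr6:86668855-86669726) had a pileup of 190 and a fold of 16.3, above 98.4% of genes with a gene-end peak by pileup and above 90.6% by fold. The window held 12 peaks, as many as the median protein-coding gene, and none with its summit inside the gene. The next tallest, 105 (85.9 to 127), lay at the end of Gmcl1, 63.5 kb away. The tallest distal peak, 61.5 kb beyond the 3′ end at chr6:86584150-86585510, reached 68 (52.8 to 86.2), or 0.358 times the height of the start peak. Within 200 kb the number was 37, above that of Myc (31), Mycn (27) and Mycl (32), so the lowest place of Mxd1 does not extend to the wider window.

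The tallest distal site away from promoter starts had 0.358 times the height of the gene's own peak at Mxd1. At Myc, Mycn, Mycl, Max and Mga the ratio ranged from 0.786 to 1.05. The intervals of the 2 peaks overlapped at those 5 members and did not overlap at Mxd1. The share of all genes with overlapping intervals was not computed. The number of distal peaks searched also differed, from 9 at Mxd1 and 13 at Mycl to 27 at Max. A distal peak of this kind at least as tall as the gene's own was present at 48.1% of the 15227 protein-coding genes with a peak at an end or start. Among the members Mycn alone had one.

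Within 100 kb, peaks were most numerous around Max and Mga, and the place of Mga did not hold per length of window at some other settings. Over all protein-coding genes the median window held 12 peaks (quartiles 6 and 19), 8 of them distal. Around Myc, Mycn and Mycl there were 15, 14 and 13 distal peaks, around Max and Mga 27 and 22, and around Mxd1 9. Without peaks at promoter starts Mga had 20, and the other 5 numbers were the same. Since the windows differ in length, the density per 100 kb was compared as well: it was 12.9 for Max, 9.07 for Mga, 8.22 for Mycl, 7.80 for Myc, 7.29 for Mycn and 5.40 for Mxd1, against a median of 4.98. The order was the same as by number. Within 50 kb Mga had 7.08 peaks per 100 kb, below Mycl (11.2), Myc (10.5) and Mycn (9.46). With a pileup of at least 20 it had 5.38, below Myc (6.83), and within 200 kb 8.04, below Mxd1 (8.76). Max had the highest density in each of these settings, with 12.8, 8.44 and 9.65. With a -log10 q of at least 5 Mga kept its place, at 8.4 against 9.78 for Max and 7.8 for Myc. Exact Poisson intervals on the numbers of peaks of Max (19.4 to 41.6) and Mxd1 (6.20 to 21.0) overlapped. These intervals treat listed sites as random counts, so they do not measure how the numbers would vary between libraries.

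**Figure D3:**
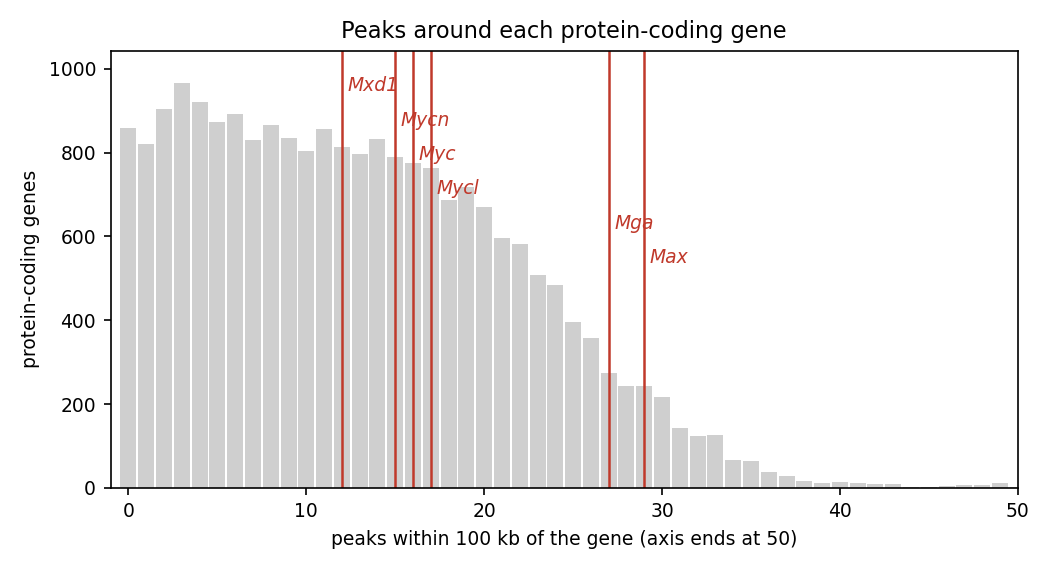
Number of protein-coding genes (vertical axis) by the number of peaks within 100 kb of the gene (horizontal axis), with the 6 genes as red lines. Mxd1 at 12 sits at the median, Mycn, Myc and Mycl lie between 15 and 17, and Mga at 27 and Max at 29 lie in the upper tail.

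Of the 116 peaks 7 lay at an end of the member itself (median pileup 110), 10 in its body (18), 9 at the end of another protein-coding gene (51), 32 in the body of another one (24.5) and 58 outside protein-coding genes (27). Distal peaks made up 100 of the 116, or 86.2%. Among all peaks of the library 20.3% lay at a protein-coding gene end, and the rest were distal by the same definition. Over the whole library the median pileup of distal peaks was 20. A pileup above 100 was reached by 11 of the 116 peaks (9.48%), against 6.18% of all peaks. The 116 peaks had a median width of 505 bp and covered 65.8 kb in all, and their median fold was 6.34, against 7.05 over all peaks.

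The gene-end peaks of Myc, Mycn and Max stood on the highest local background of the 6. The fold enrichment divides pileup plus 1 by local background plus 1, so both values together give the background in units of pileup. Per the peak names no control was used, so this background was drawn from the reads of the same library. Whether nearby peaks raised it was not tested. At the gene-end peaks it was 15.9 at Mycn, 14.6 at Myc and at Max, 10.7 at Mxd1, 9.79 at Mycl and 4.63 at Mga, against a median of 5.09 over peaks near promoter starts. Of the 16 peaks around Myc 5 had a background above 10, as did 2 of 15 around Mycn, 2 of 29 around Max, 1 of 12 around Mxd1 and none of 17 around Mycl or of 27 around Mga. Over all peaks the share was 5.03%. The tallest peak around Mycn, the distal one of 112, had a background of 7.43. By fold, the gene-end peaks of Myc and Mycn thus ranked above 18.3% and 13.9% of genes, while by pileup they ranked above 79.4% and 78.0%.

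**Figure D4:**
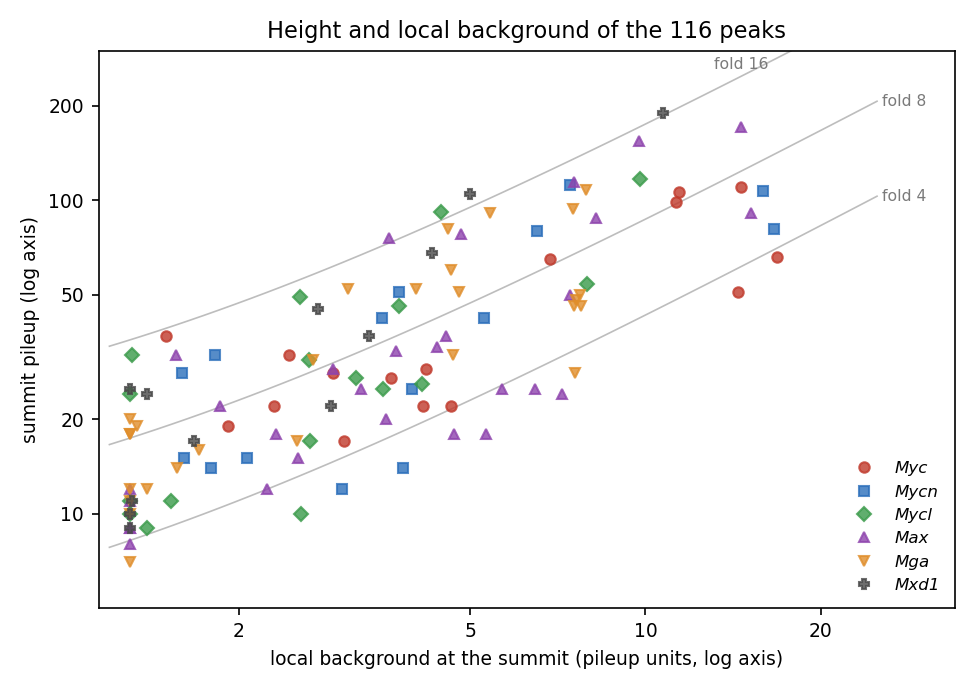
Summit pileup (vertical log axis) against the local background at the summit (horizontal log axis), both in units of pileup, for the 116 peaks, with grey lines of equal fold enrichment at 4, 8 and 16. The 5 Myc peaks with a background above 10 lie at the right, at pileups from 51 to 110 and near the lines of 4 and 8, while the Mxd1 peak of 190 lies close to the line of 16.

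The wider network of the family was accessible nearly throughout. Of 49 genes on 4 lists 47 had a gene-end peak, against 66.5% of all protein-coding genes, with a median pileup of 100 against 66. All 42 of these genes with a RefSeq promoter start had a peak within 1 kb of it, against 66.5% of the 17491 protein-coding genes with such a start. The lists were chosen with results of these data known, and these are counts within 1 library.

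Among the other dimer partners of MAX and its relative MLX, all 7 had a peak at a gene end (median pileup 104). Mxd4 and Mnt, both MAX partners that repress, led with 150 and 144. Mlxipl, the glucose-responsive factor ChREBP, had the lowest, at 9, but a peak of 39 at its start. Of the 12 genes for PRC1.6 partners of MGA all had one (median 86). Cbx3, a heterochromatin protein gene, and Rnf2, which encodes the ubiquitin ligase of Polycomb complex 1, led with 151 and 129, and E2f6 had the lowest, at 24.

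Of 14 genes for MYC cofactors and turnover 12 had a gene-end peak (median 90). Ep400, a chromatin remodeller, and Gsk3b, a kinase that marks MYC for degradation, led with 230 and 228. Ruvbl2 and Skp2 had none at their annotated ends but peaks of 133 and 91 at their promoter starts. Of 16 classical MYC targets all had one (median 118), led by Pa2g4 at 257 and Ncl, the nucleolin gene, at 187. The lowest, Ldha at 13, had a peak of 91 at its promoter start.

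**Figure D5:**
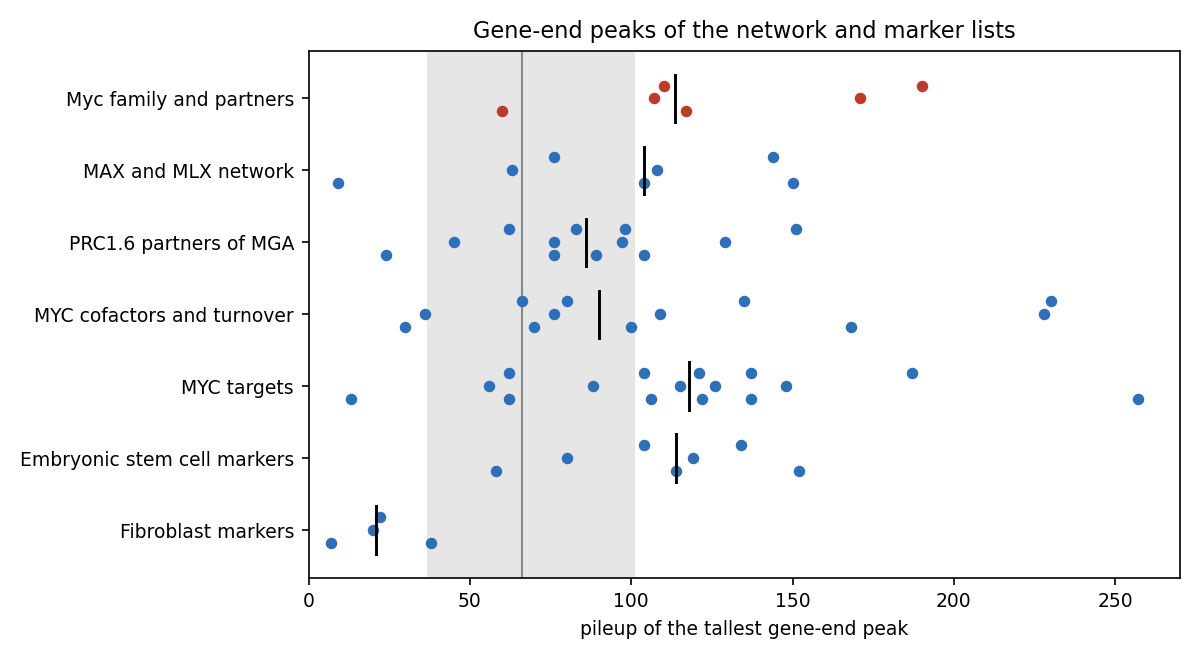
Pileup of the tallest gene-end peak (horizontal axis) for the 6 genes (red), the 4 network lists and 2 marker lists (blue), 1 point per gene with a peak and a black bar at each median. The grey band runs from the lower to the upper quartile (37 to 101), and the grey line is the median (66), of protein-coding genes that have such a peak; the fibroblast markers lie between 7 and 38.

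The limit of 100 kb was set by position and left some tall sites just outside. At Myc the last peak inside lay 88.6 kb away with a pileup of 27, and the first outside 102.1 kb away with 147. At Mycl a peak of 49 at 96.9 kb was inside and one of 148 at 108.9 kb outside. At Max the peak of 114 at the end of Fntb, 99.3 kb away, was just inside, and the next, at 109.4 kb, had 8. At Mga a peak of 12 at 98.7 kb was inside and one of 53 at 105.8 kb outside. At Mycn the nearest outside had 31, at 108.3 kb, and at Mxd1 11 and 25, at 101.4 and 101.9 kb.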

How the data were processed

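The deposited file lists ATAC-seq peaks of 1 library. The submitters' processing notes name MACS2 2.2.6, Bowtie2 2.3.4.1, deepTools 3.2.1, bcl2fastq 2.20.0.422 and SAMtools 1.9, with mm10 and GRCm38.p6 as builds. Of read filters and any shift for Tn5, the sources used here say nothing. PCR duplicates that were kept would count 1 molecule more than once. The authors deposited, per peak, an integer score, a fold enrichment (a ratio of pileup to local background within this library), and -log10 values of p and q, at a q of 0.05 and, per the peak names, without a control. The sources used here give neither total read counts nor whether pileup counts reads or fragments.

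Summit pileup and local background were solved from the deposited fold and -log10 p; 77628 of 77629 peaks gave a whole pileup within 0.01 in -log10 p. Genes and promoter sequences came from RefSeq (GRCm38.p6); the gene table holds no exons, so exon, intron and UTR were not assigned. A peak was at a gene end or start if it overlapped 1 kb either side by 1 bp or more. "Above" a share of genes means that this share had a lower value. Where a gene had several peaks, the tallest counted. For the gene-end fold and -log10 q over all genes, the highest value among them counted.

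The 6 members, the lists and the rule for named genes were chosen with earlier results of these data known. That rule names each gene-end peak of a member, the 3 tallest peaks of its window, the peaks at the limits, and for each list the 2 genes with the tallest gene-end peak and those without one. Mlxipl, E2f6, Ldha and the further peaks described were named after their values were seen. The functions were tested on simulated data. Groups came from sample titles, since the labels give 6 h as treatment at 1 h and at 24 h too. Alternatives varied the q and pileup minimum, windows, overlap rule, gene ends and measure of height. Computation used scipy 1.17.1, pandas 2.3.3 and numpy 2.4.6 under Python 3.11.15, with figures by matplotlib 3.10.9.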

Additional observations from a re-analysis of the deposited data

How the results depend on the processing

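The number of peaks in the 6 windows was 116 and followed the window, at 68 with 50 kb and 208 with 200 kb either side. It was 100 with a -log10 q of at least 5, 78 with a pileup of at least 20, and 116 with the summit required inside. The number of distal peaks, 100, was 63 with a pileup of at least 20 and between 84 and 92 under the other 3 alternatives. Of the 6 genes all had a gene-end peak, and 5 with windows of 500 bp or the summit required inside, where Mycn lost it; the promoter starts gave 5, since Myc has none in the table. For the network lists the count ranged from 45 to 48 around 47. In the order of the gene-end peaks 3 of 6 places were kept by fold, where Mga moved ahead of Myc and Mycn, 6 by -log10 q, and 4 with promoter starts, an alternative chosen after seeing the data. In the order by number of peaks all 6 places were kept per 100 kb of window. In further alternatives chosen after seeing the data, all 6 were kept within 50 kb, 2 were kept with a -log10 q of at least 5, where Mga led with 25 against 22 for Max, 4 with a pileup of at least 20 and 2 within 200 kb. Per 100 kb of window the same settings kept 4, 3 and 1, and 50 kb kept 2. Of 54 alternative counts for single genes 39 stayed within 1.5 times. No paired analysis was possible because 1 library was analysed. Depth limits the list to pileups of 6 or more, and to higher ones where the local background is higher.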

Other observations

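Pvt1, the noncoding neighbour of Myc, extends far beyond the window used for Myc. Over its 222.2 kb (chr15:62037986-62260215) it held 25 peaks, of which 6 lay in that window, with a median pileup of 24.5, and 19 beyond it, with a median of 16. The tallest beyond it, at chr15:62092461-62093281 and 102.1 kb from Myc, had a pileup of 147 (124 to 173). That is taller than each of the 16 peaks inside the window, though its interval overlaps those of the gene-end peak of Myc and of the distal peak of 106.

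Around Mxd1 there were 5 peaks within 50 kb, against 11 around Myc. The longest stretch without a summit was 51.1 kb in the window of Myc and 25.8 kb in that of Mga.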
